A study of Drosophila melanogaster with 3 samples.

Results

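The 314 summits described here are the Collier (Col) ChIP-seq summits of Drosophila embryos whose gene label stands on a single line of the deposited list, out of 559 summits and 409 labels in all. They were chosen by the number of listed summits per label, so the value that selected them is a peak count from the Col-IP itself. The other 245 summits belong to 95 labels with several summits each. Just outside the limit stand the 132 summits of the 66 labels with exactly 2.

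Chromatin came from whole embryos at stages 13 to 14 that carried the lacZ reporter transgene col 2.6_0.9ColCONS (a modified Col-dependent muscle enhancer), as the methods state. Col-IP chromatin was precipitated with a mix of 3 monoclonal antibodies against Col, mock-IP chromatin with an antibody to the HA tag, and an input DNA library is also labelled. Each IP was sequenced as 1 library from pooled IPs, so there were no replicates and no value has a replicate error. Only the Col-IP summit list was used, which holds no read counts, so the depth behind a summit is unknown, and since whole embryos were used, a summit cannot be placed in muscle, nerve cord or any other Col-expressing tissue.

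Col, encoded by the gene knot (kn), is the fly member of the COE (Collier/Olf/EBF) family of transcription factors, which bind DNA as dimers on a palindromic site. In vertebrates EBF proteins are known for B-lymphocyte and neuronal development. In the fly embryo Col acts in muscle identity, in subsets of neurons, in the head and in the lymph gland, where it specifies the niche of blood cell precursors.

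Listed sites of some of the strongest and weakest of these summits are shown first, each with its fold enrichment, the ratio that the peak caller gave the summit over a background that the sources used here do not name. The study lists, for most summits, 1 site of 15 bases found by motif search in the 200 bases around the summit, and the sites are printed here in the direction in which it lists them, 5′ to 3′, with dm3 coordinates. Capitals mark the bases that match the 6 specified bases of CCCNNGGG, the palindromic core, looked for at positions 5 to 12 of the site. The direction of the sites on the genome was not used here. The first group holds some of the high summits with all 6 core bases, and also tkv, a lower one that the study cloned.
Sep4 (chrX:16583782-16583796, fold enrichment 10.58): aatgCCCatGGGaat
Fas1 (chr3R:12455735-12455749, 8.84): tcttCCCcgGGGagt
Osi21 (chr2L:11297637-11297651, 8.39): tttcCCCaaGGGagc
cnc (chr3R:19037647-19037661, 8.03): aattCCCcaGGGacc
wge (chr3R:18545287-18545301, 7.87): gcttCCCaaGGGaca
Dl (chr3R:15145127-15145141, 6.94): ttctCCCgcGGGagc
phl (chrX:2215082-2215096, 6.51): gtttCCCctGGGagg
tkv (chr2L:5245576-5245590, 4.24): aattCCCtgGGGatc

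These genes are of many kinds. Sep4 encodes a septin, Fas1 the adhesion molecule Fasciclin 1, cnc a bZIP factor of head segmentation, wge a chromatin protein, Dl the Notch ligand Delta, phl the Raf kinase and tkv a type I BMP receptor, and Osi21 belongs to the Osiris family. For cnc, the study's list of reporter constructs marks a polymorphism and reads CTC where the site above has CCC. The next group holds high summits whose listed site lacks core bases.
Smr (chrX:12630284-12630298, 9.38): aattCCCcaGaGaac
CG12541 (chrX:6941026-6941040, 7.90): aattCCCccGaGgat
CG2955 (chr2L:4136909-4136923, 6.24): atttCCCcaGatggc
CG14535 (chr2L:7850645-7850659, 5.06): ttatCCCcgtaGaat

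Smr encodes a transcriptional corepressor. Only the 1 listed site was read at each summit, so other cores near these summits were not looked for. The last group holds low or middling summits over a complete core.
gpp (chr3R:2253666-2253680, 3.59): tgtcCCCaaGGGgat
beat-IIIa (chr2L:17163971-17163985, 2.07): tgtcCCCaaGGGgat
mnd (chr3L:14981240-14981254, 2.12): gagtCCCaaGGGagt
Dfd (chr3R:2624910-2624924, 2.07): atctCCCagGGGaga
CG42389 (chr2L:16647530-16647544, 1.96): atttCCCagGGGagg

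The listed sites of gpp, which encodes a histone H3 methyltransferase, and beat-IIIa, of the beaten path family of axon guidance proteins, are the same 15 bases on different chromosomes, at fold enrichments of 3.59 and 2.07. Dfd is a Hox gene of the head. A complete core therefore stood under summits from 1.96 to 10.58, nearly the whole range of the members.

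Fold enrichment had a median of 2.77 at genes with 1 summit (95% order-statistic interval 2.65 to 2.88, quartiles 2.35 and 3.62, range 1.94 to 10.58), against 2.98 at labels with several summits (interval 2.83 to 3.13, quartiles 2.44 and 4.0, range 1.95 to 16.17). Of the single summits, 130 reached 3 (41.4%, 95% Wilson interval 36.1 to 46.9%), against 121 of 245 at labels with several (49.4%) and 44.9% of all summits in the list. Because fold enrichment and the count of summits come from the same precipitation, these values describe the members and were not tested. Intervals here and in the following cover counting error over summits only.

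Which summit of a label is taken sets the order. The highest summit of each label with several had a median of 3.68 and the lowest one 2.44, so the single summits lay between them. Labels with exactly 2 summits had a median of 2.795 (interval 2.63 to 3.04) and a maximum of 7.07, close to the members. Membership also moved with the strength required of a summit. Of the 202 labels left at a fold enrichment of at least 3, 166 had 1 summit, and these were 130 of the members plus 36 labels that have several in the full list.

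**Figure D1:**
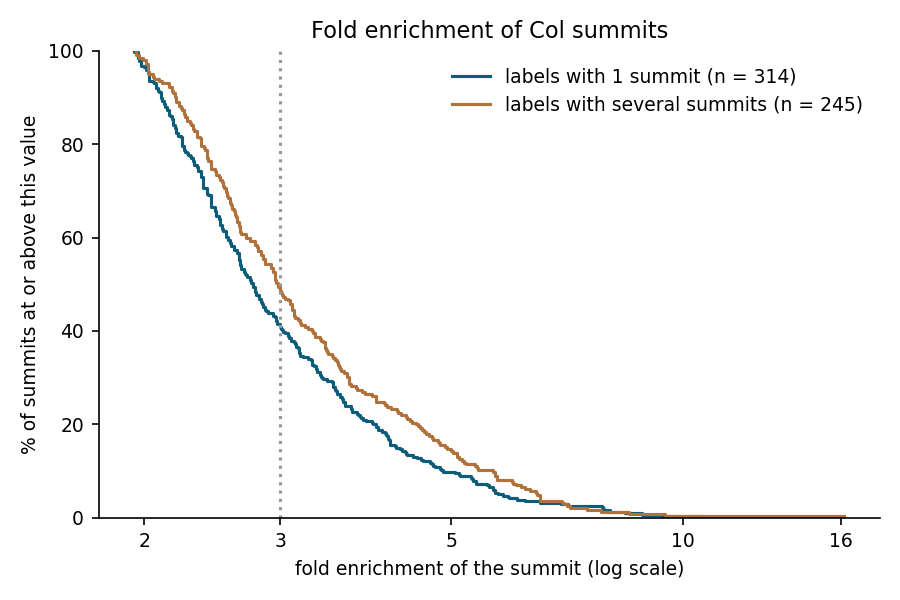
Share of summits (y axis, percent) at or above each fold enrichment (x axis, log scale) for the 314 summits of labels with 1 summit and the 245 summits of labels with several. The dotted line marks a fold enrichment of 3, reached by 41.4% of the single summits and 49.4% of the others, and the single-summit curve runs under the other over most of the range.

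Of the 314 single summits, 302 had a listed site centred at most 100 bp away (96.2%, interval 93.4 to 97.8%), against 240 of 245 at labels with several (98.0%), a difference of −1.78 percentage points (95% Newcombe interval −4.76 to 1.32). The search window fixes this reach. The 12 members with no listed site were cenG1A at a fold enrichment of 4.60, ssp3 at 4.14, HGTX at 3.71, Dr at 3.53, pros at 3.26, CG32369 at 2.58, sala at 2.44, the joint label kermit/Lpin at 2.2, Tusp at 2.17, fkh at 2.13, CG10479 at 2.03 and CG41242 at 1.98. Of these, HGTX, Dr and pros encode homeodomain factors and fkh a forkhead factor.

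All 6 core bases were present in 129 of the 302 sites at single summits (42.7%, interval 37.3 to 48.4%), against 102 of 240 sites at labels with several (42.5%). The difference was 0.22 percentage points (interval −8.14 to 8.51). Exactly 5 were present in 138 sites (45.7%), against 104 (43.3%), and 4 or fewer in 35 (11.6%), against 34 (14.2%). The consensus CCCNNGGGA has an A after the core. Read on either strand, it was matched in full by 117 sites at single summits (38.7%), against 86 at labels with several (35.8%). The motif had been derived from these same summits, so the shares describe the sites and are no separate evidence for the motif.

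Among the 138 single-summit sites with 5 core bases, the missing base was mostly one of the 3 G as listed. Because the core is palindromic, a missing G becomes a missing C when the site is read on the opposite strand. The middle G and the C at position 2, for example, then change places. The split between C and G therefore depends on the listed direction and cannot show which side of the core varies more. The middle G, at position 7 of CCCNNGGG, was missing in 76 sites (55.1%), as in Smr and CG12541. The first G, at position 6, was missing in 36, the C at position 2 in 19, the last G in 6, the C at position 3 in 1 and the first C in 0. The order at labels with several summits was alike at the top, with the middle G missing in 52 of 104 sites. The bases between the CCC and the GGG, counted together with their reverse complement, were AA in 30 of the 129 complete cores at single summits (23.3%), CA in 24 (18.6%), AG in 23 (17.8%), AT in 16 (12.4%) and CG in 11 (8.53%), and each of the other pairs stood in 9 or fewer.

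Median fold enrichment was highest where a complete core had both flanking bases. Single summits with all 6 core bases had a median of 2.94 (interval 2.66 to 3.18), those with 5 had 2.695 (2.52 to 2.83), those with 4 or fewer 2.66 (2.44 to 3.04), and the 12 without a site 2.51. The complete cores then differed by their flanks, a T directly before and an A directly after the core, as in cnc, Dl and tkv. The 46 with both flanks had a median of 3.755 (interval 3.10 to 4.70) and 33 of them reached 3 (71.7%), whereas the 71 with 1 flank had a median of 2.72 (2.51 to 3.00) and 27 reached 3 (38.0%), close to the 36.2% of sites with 5 core bases. Of the 12 with neither, gpp and beat-IIIa among them, 2 reached 3, with a median of 2.455.

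The same classes at labels with several summits had medians of 4.68 (n = 27), 3.00 (n = 59) and 2.98 (n = 16). Both flanks stood around 35.7% of the complete cores at single summits and 26.5% of those at labels with several, a difference of 9.19 percentage points whose interval, −2.91 to 20.6, includes 0. The split between both flanks and 1 flank held for members on and off the X chromosome, with medians of 5.14 (n = 9) and 3.59 (n = 37) with both flanks and 2.69 (n = 10) and 2.72 (n = 61) with 1. On the X, however, the 21 sites with under 6 core bases had a median of 3.61, above that of complete cores with 1 flank. Off the X, sites with under 6 core bases had a median of 2.65 (n = 152). In sites with only 5 core bases the split was less clear, since the 52 with both flanks had a median of 2.84 (interval 2.61 to 3.35), the 73 with 1 flank 2.58 (2.38 to 2.78) and the 13 with neither 3.17 (2.24 to 3.61). The flank classes were set after earlier results of these data were known. The low summits Dfd, mnd and CG42389, with both flanks and a complete core, lie against the pattern, as do Smr, CG12541 and CG2955 with incomplete cores. So do Sep4 at 10.58, the highest of all members, and Osi21 at 8.39, whose complete cores have only 1 flank.

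**Figure D2:**
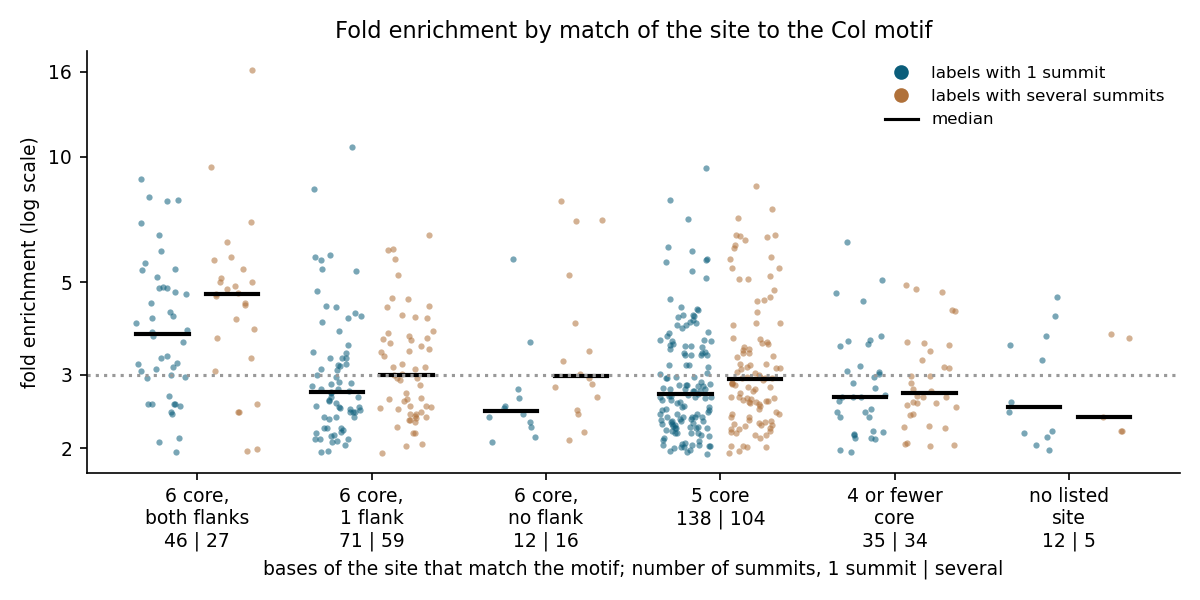
Fold enrichment (y axis, log scale) of each summit by the match of its listed site (x axis), with labels with 1 summit left of labels with several in each class, black bars for medians and a dotted line at 3. Complete cores with both flanking bases have medians of 3.755 at single summits and 4.68 at the others, and all classes overlap widely.

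Sites lay close to the single summits. The median distance from site centre to summit was 17 bp (quartiles 8 and 33), against 20 bp (quartiles 7 and 39) at labels with several, with 151 single-summit sites on one side, 148 on the other and 3 at the summit. Summit positions in the list fall on a 10 bp grid, so smaller distances are not resolved. Within 25 bp lay 208 of 302 sites at single summits (68.9%, interval 63.4 to 73.8%), against 141 of 240 (58.8%, interval 52.4 to 64.8%), a difference of 10.1 percentage points with an interval of 2.00 to 18.2. Summits of 1 label are not independent of each other, and the interval takes no account of that. The difference was 1.69 points when 10 bp was the limit and 2.02 at 50 bp, and both of those intervals included 0. Without summits that have another summit within 1 kb it was 7.91 points, again with an interval that included 0.

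By class of site, without a test between classes, for 6 core bases the shares within 25 bp were 79.1% at single summits and 68.6% at the others, for 5 core bases 62.3% and 57.7%, and for 4 or fewer 57.1% (20 of 35) and 32.4% (11 of 34), with differences of 10.4 (interval −0.87 to 21.8), 4.63 (−7.67 to 16.9) and 24.8 points (1.39 to 44.7). At single summits the share within 25 bp was larger with 6 core bases than with 5, while the Wilson intervals for 5 (54.0 to 70.0%) and for 4 or fewer (40.9 to 72.0%) overlapped. Summits with the site at 0 to 10 bp had a median fold enrichment of 3.00 (n = 102), and those with the site at 11 to 25, 26 to 50 and 51 to 100 bp had 2.68, 2.675 and 2.66.

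**Figure D3:**
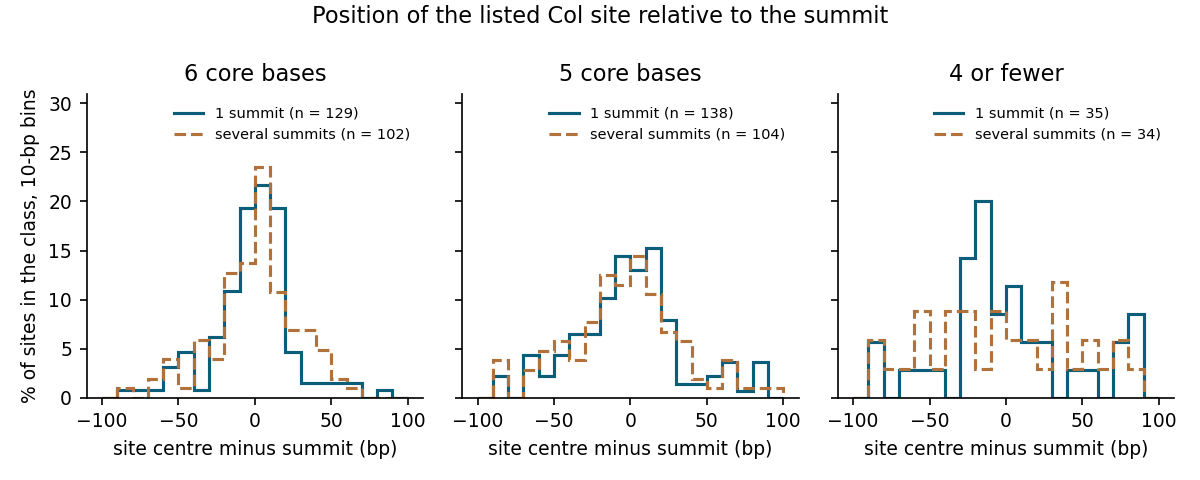
Position of the listed site relative to its summit (x axis, bp) as the share of sites in each 10 bp bin (y axis, percent), in panels by the number of core bases, for labels with 1 summit (solid) and with several (dashed). Sites with 6 core bases cluster at the summit, with 79.1% within 25 bp at single summits and 68.6% at the others. For sites with 4 or fewer these shares are 57.1% and 32.4%.

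The genes with 1 summit were sorted into 7 lists by function, all chosen with earlier results of these data known, and the members named beyond the 4 highest of each list are examples picked after their values were seen. Transcriptional regulators, the 3 lists of DNA-binding factors and cofactors together, made up 65 of the 314 labels (20.7%, interval 16.6 to 25.5%), against 23 of 95 labels with several summits (24.2%), a difference of −3.51 percentage points (interval −13.9 to 5.41). Labels that are only a CG number, mostly genes without a given name when the list was made, were 110 of 314 (35.0%), against 33 of 95 (34.7%), and the interval of that difference of 0.30 points ran from −10.9 to 10.6.

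Homeodomain and paired-domain factors, which specify segments, neurons and muscles, had the highest median of the lists. Of the 29 with a single summit, 22 reached 3 (75.9%), against 44.9% of the whole list, with a median of 3.62 and a range of 2.07 to 5.67. Highest were inv at 5.67, an engrailed-family gene, Lim1 at 5.34, so (sine oculis), a homeobox gene of eye development, at 5.32 and sv at 5.31, the fly Pax2 gene. Next in order were CG34367 at 4.57, eve at 4.38, slou at 4.32, Gsc at 4.29, caup at 4.17, oc at 4.07, zfh1 at 4.02 and exex at 3.95. POU factors included pdm3 at 3.62, acj6 at 3.56 and vvl at 3.45. Poxm, a paired-domain factor of somatic muscle, stood at 3.08. The 7 under 3 were pb at 2.65, zen at 2.55, ems at 2.52, unc-4 at 2.32, Dbx at 2.29, Abd-B at 2.24 and Dfd at 2.07. Of the 26 with a listed site, 8 had all 6 core bases, against 129 of 302 for all members, and 18 of the 26 lay within 25 bp.

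Of the 22 other DNA-binding factors, 6 reached 3 (27.3%, against 41.4% of all members) and the median was 2.445. cnc at 8.03, nerfin-1, a zinc-finger gene of axon guidance, at 5.59, the neuroblast zinc-finger factor erm at 4.85, the forkhead factor slp2 at 4.37, the Snail-family factor wor at 4.02 and the GATA factor pnr at 3.35 were those 6. Factors below 3 included cas at 2.2, a neuroblast timing factor, the ETS factors pnt at 2.38 and aop at 2.01, the bHLH-PAS factors trh at 2.37 and sim at 2.08, and crp at 1.94, the lowest of all members. Complete cores stood under 5 of the 21 with a site, against 129 of 302 for all members.

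Among 14 cofactors and chromatin proteins, Smr at 9.38 and wge at 7.87 stood far above gpp at 3.59 and the rest, which lay under 3. Their median was 2.44, and 3 of 14 reached 3 (21.4%, against 41.4% of all members). Of their 14 sites, 9 had all 6 core bases, against 129 of 302 for all members. The low ones included Mrtf at 2.57, a coactivator of SRF, nvy at 2.55, the fly MTG gene, the GATA cofactor ush at 2.52, the Polycomb-group gene Psc at 2.44, the SWI/SNF subunit osa at 2.31 and the Notch coactivator mam at 2.21.

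Signalling genes had a median of 3.04, and 10 of 19 reached 3 (52.6%, against 41.4% of all members). Notch pathway members were Dl at 6.94, the Notch inhibitor numb at 3.72, bib at 3.07, the metalloprotease gene kuz at 2.96 and malpha, of the Enhancer of split complex, at 2.67. Kinases and receptors included phl at 6.51, tkv at 4.24, the Hippo pathway kinase wts at 4.14, the receptor Toll (Tl) at 4.0, the Wg co-receptor arr at 2.47 and the Jun kinase bsk at 2.18. Among ligands, Wnt4 stood at 3.04 and the EGF receptor ligand vn at 2.77. Listed sites had all 6 core bases in 10 of the 19, against 129 of 302 for all members.

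Of 26 axon guidance and adhesion genes, 10 stood at 3 or above (38.5%, against 41.4% of all members), with a median of 2.635. Fas1 at 8.84 was followed by the Ig-family gene dpr16 at 4.72, the extracellular matrix gene tnc at 4.36, Nrx-IV, of septate junctions, at 4.11 and the Slit receptor gene robo3 at 3.81. sns, the adhesion receptor of fusion-competent myoblasts, stood at 3.21. Guidance genes under 3 included NetB at 2.87, Ama at 2.53, an Ig protein that binds Neurotactin, Nrt itself at 2.61, Sema-1a at 2.37, comm at 2.24, and beat-IIIc, beat-Vc, beat-Va and beat-IIIa between 2.07 and 2.66. Complete cores stood under 13 of the 26, against 129 of 302 for all members.

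Neurotransmission and sensory genes had a median of 2.635, with 5 of 14 at 3 or above (35.7%, against 41.4% of all members). Gad1, for GABA synthesis, stood at 3.96, Hdc, for histamine, at 3.84, Cha, for acetylcholine, at 3.30, and Vmat, the vesicular monoamine transporter, at 2.28. The highest of the list was the odorant receptor gene Or56a at 5.70, whose RefSeq neighbour Obp56g, an odorant-binding protein gene, had a summit of 2.95. Cytoskeleton and muscle genes had 14 members, 6 at 3 or above (42.9%, against 41.4% of all members) and a median of 2.77, the same as over all members. They ran from Sep4 at 10.58, CAP at 7.08, an adaptor of muscle attachment sites, and Grip at 5.93, which acts in muscle guidance, down to TpnC47D at 2.87, a troponin C gene, the dystrophin gene Dys at 2.2 and cno at 2.07.

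The remaining 176 members fell in none of the lists, with a median of 2.75 and 68 at 3 or above (38.6%). Osi21 at 8.39, CG12541 at 7.90, CG9328 at 7.85, CG2955 at 6.24 and CG43867 at 5.95 were highest. Members named by a CG number had a median of 2.855 (interval 2.67 to 3.13, n = 110), against 2.68 (interval 2.57 to 2.85, n = 204) for named genes. RefSeq now gives another symbol to 26 of the 112 CG-number names, such as side-VIII for CG12484 (fold enrichment 4.73), trv for CG34362 (5.56), DIP-eta for CG14010 (2.58), Lmx1a for CG32105 (2.14) and Tet for CG43444 (2.97), so the lists, built on the names in the files, miss some members, the LIM-homeodomain gene Lmx1a among them. These examples were chosen after their values were seen.

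**Figure D4:**
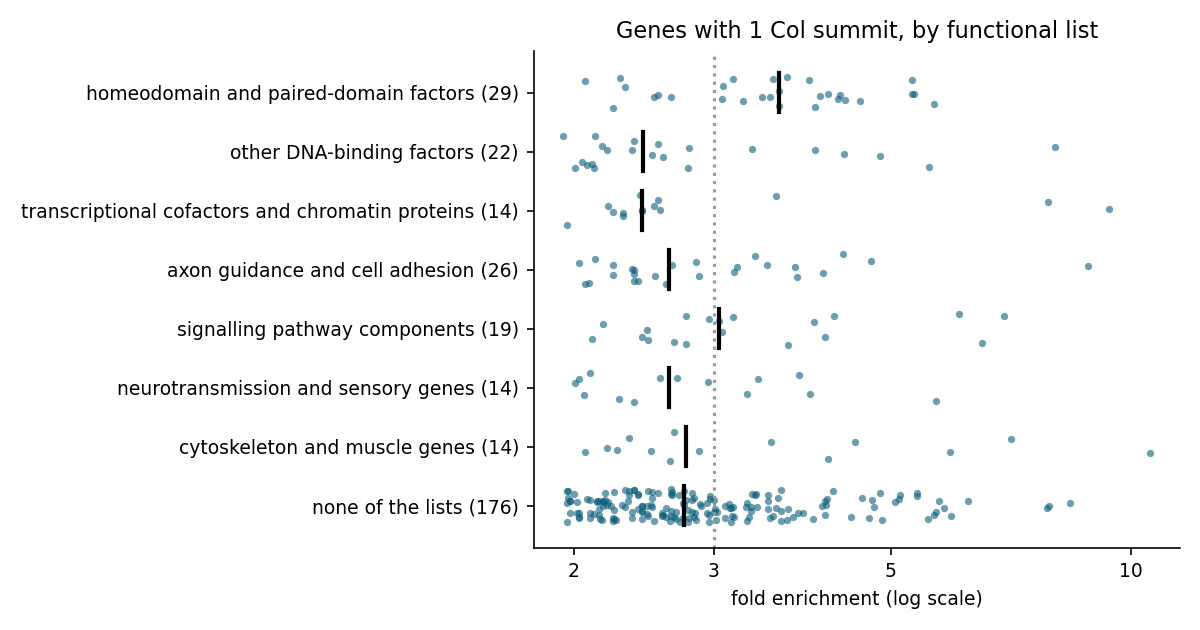
Fold enrichment (x axis, log scale) of the genes with 1 Col summit, by functional list from top to bottom, with the number of members in parentheses, black bars for medians and a dotted line at 3. Homeodomain and paired-domain factors have the highest median, 3.62, with 22 of 29 at 3 or above, and the other DNA-binding factors and the cofactors have 2.445 and 2.44.

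Single summits stood far apart. The distance to the nearest other summit on the same chromosome had a median of 83550 bp (quartiles 36400 and 186770 bp, n = 313), against 3630 bp at labels with several summits, where the nearest is usually of the same label. That contrast follows from the rule. Measured to the nearest summit of another label, which the rule does not set, the median at labels with several was 59170 bp (quartiles 27040 and 146710 bp). A summit of another label within 10 kb was found for 10 of 314 single summits (3.18%, interval 1.74 to 5.76%), against 8 of 245 (3.27%), a difference of −0.08 percentage points (interval −3.45 to 2.95).

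Those 10 formed 5 pairs in which both labels are members. raw at 6.09, a regulator of Jun kinase signalling, and CG12438 at 3.17 lay 610 bp apart, CG43750 at 3.71 and CG3557 at 2.10 lay 1720 bp apart, and wuc at 2.52 and CG42663 at 2.48 lay 2600 bp apart. zen at 2.55 and Ama at 2.53 lay 9550 bp apart in the Antennapedia complex, and CG7065 at 5.14 and fend at 4.88 lay 9740 bp apart. For such pairs a different choice of gene would have made 1 label with 2 summits.

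**Figure D5:**
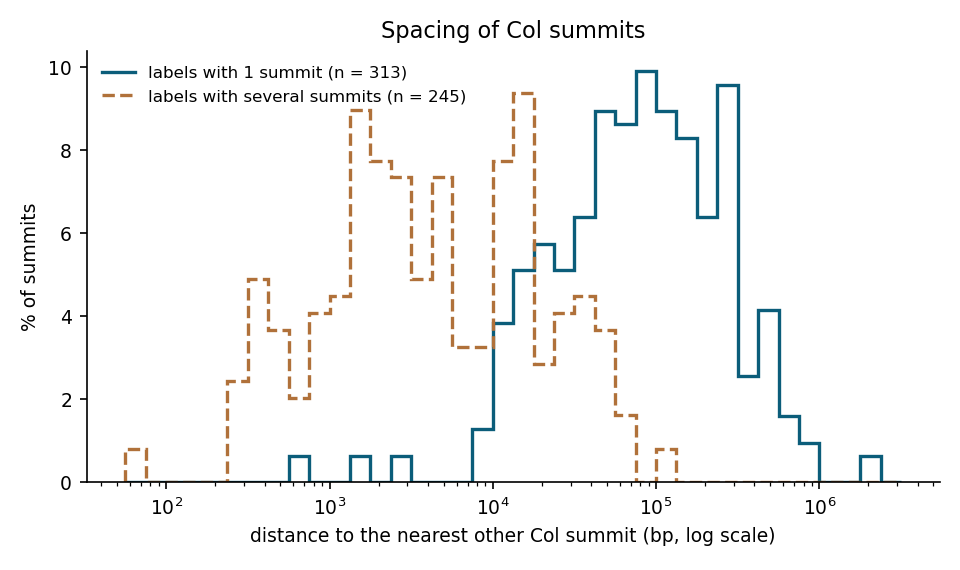
Distance from each summit to the nearest other summit on its chromosome (x axis, bp, log scale) as the share of summits (y axis, percent), for labels with 1 summit (solid) and with several (dashed). The medians are 83550 bp and 3630 bp, and the few single summits under 10 kb are the 5 pairs of members.

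In the RefSeq gene order, 65 of the 310 members whose names matched had an adjacent gene that is also a label in the list (21.0%, interval 16.8 to 25.8%), against 35 of 93 labels with several summits (37.6%, interval 28.5 to 47.8%), a difference of −16.7 percentage points (interval −27.6 to −6.28). Adjacent labels count for each other, so they are not independent, and the interval takes no account of that. The choice between adjacent genes also sets how many summits a label has. No alternative setting was run for this comparison. There were 47 pairs of adjacent labels with at least 1 member, including Cha with Cha/VAChT, which share a gene. Of the 47 pairs, 23 were of 2 members and 24 of a member with a label that has several. Related genes were among them: caup (1 summit, 4.17) beside the Iroquois gene mirr (2 summits, highest 2.64) and unc-4 (1 summit, 2.32) beside OdsH (3 summits, highest 5.70). CG10200, with a single summit of 3.18, neighbours kn, the gene of Col itself, which had 3 summits with a highest value of 3.55, the nearest at 11170 bp. osm-6 at 2.55 neighbours eya, a partner gene of so (2 summits, highest 3.99), and ssp3 at 4.14 neighbours the LIM-homeodomain gene tup (2 summits, highest 3.77). These pairs were chosen after their values were seen, and which gene of a pair a summit acts on was not measured.

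The label itself limits what a single summit means. Of the 314 labels, 6 name a pair of genes, nub/pdm2 at 3.17, itp/CG4622 at 3.14, Cyp49a1/G-oalpha47A at 2.83, CG43954/Lasp at 2.64, kermit/Lpin at 2.2 and Cha/VAChT at 2.06, so the members carry 320 gene names. Cha occurs both alone, at 3.30, and in Cha/VAChT, 16150 bp away, so this gene has 2 summits once joint labels are split. VAChT, the vesicular acetylcholine transporter gene, lies within the Cha locus.

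Members were spread over the chromosome arms, with 71 on 2L, 58 on 2R, 64 on 3L, 75 on 3R, 40 on the X, 3 on chromosome 4 and 3 on unplaced or heterochromatic sequence (klhl10 at 2.15, CG40378 at 2.16 and CG41242 at 1.98). The X held 12.7% of the single summits (interval 9.50 to 16.9%), against 13 of 245 summits at labels with several (5.31%, interval 3.13 to 8.87%), a difference of 7.43 percentage points (interval 2.62 to 12.1). This comparison was added after the data had been seen. The difference was 11.7 points among summits of at least 3 and 7.48 with 1 summit for each label with several.

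Single summits on the X were also higher, with a median of 3.615, against 2.61 to 2.85 for the 4 large autosomal arms. Of the 40 on the X, 27 stood at 3 or above (67.5%). That share was 31.25 to 43.7% on those arms and 41.4% over all members. The 13 X summits of labels with several had a median of 4.58, with 11 at 3 or above (84.6%, against 49.4% of all summits at such labels). Of the 12 members with the highest fold enrichment, Sep4, Smr, CG12541 and phl are X-linked. Mock-IP and input reads at these summits were not analysed here.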

How the data were processed

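ChIP-seq of Col was done on chromatin of whole embryos at stages 13 to 14, with a Col-IP, a mock-IP and an input library. The submitters' processing notes and the methods name CASAVA 1.8, Bowtie 0.12.7, the SISSRs peak caller and deepTools. Reads were aligned to BDGP release 5 (dm3), plasmid sequence left by elution with recombinant Col was removed, and peaks were called on the pooled Col-IP library, so replicates could not be compared. The deposited list gives for each summit, 1 base wide, a position and a text that joins a gene label, from PeakAnalyzer or manual curation, with a fold enrichment, a linear ratio written by the authors over a background that the sources used here do not name. It holds no read counts.

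From the list, labels with 1 line were selected. Each summit was joined to the site that the study's supplement lists nearest to it, at most 100 bp from summit to site centre. The sites were used for their sequence and position alone. Names were matched to the RefSeq gene table (Release 6), which served only for names and for which genes are adjacent. Of 320 names, 273 were current symbols, 43 were older names and 4 were ambiguous or not found. Shares have 95% Wilson intervals, their differences Newcombe intervals and medians order-statistic intervals. No p-value was computed, because summits are not replicates. Joins, counts and intervals were tested on simulated data (Python 3.11.15, numpy 2.4.6, scipy 1.17.1, matplotlib 3.10.9).

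The members and gene lists were chosen with earlier results of these data known. The rule for named genes took the 12 highest and 5 lowest members, the 4 highest of each list, members the study names, joint labels, members that share a site sequence, those with another label within 1 kb, and those with a complete core within 10 bp and a fold enrichment of at least 5. All others were picked as examples afterwards. Some members that the rule took are not described above, namely dnc, RhoGAP19D, toc, simj, CG4393, CG42758, Art9 and CG15577. No dm3 genome was used here, so the strand of the sites and the exon or intron around a summit are not given. The position classes, GO terms, quantitative PCR and reporter assays were not analysed here.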

Additional observations from a re-analysis of the deposited data

How the results depend on the processing

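Fold enrichment and the count of summits come from the same precipitation. Differences in fold enrichment are therefore described here, and their intervals are no test. The difference in share at a fold enrichment of at least 3 was −7.99 points (interval −16.2 to 0.32), and −8.82 (−16.3 to −1.06) with a threshold of 2.5. The difference in complete cores was −0.82 points at a fold enrichment of at least 3 and −1.50 against the highest summit of each label, in place of 0.22, and the difference in CG-number labels was 13.6 points at a fold enrichment of at least 3, in place of 0.30, these with intervals that included 0. With a fold enrichment of at least 3, 166 labels had 1 summit in place of 314, the share of complete cores at single summits was 49.6% in place of 42.7%, and the share of sites within 25 bp was 74.4% in place of 68.9%. With at most 1 mismatch, 88.4% of those sites matched the core. The difference in median fold enrichment, single summits minus summits at labels with several, was −0.21 (interval −0.40 to −0.02, combined from those of the 2 medians). It was −0.025 (−0.30 to 0.17) against labels with exactly 2 summits, −0.91 against the highest summit of each label with several and turned to 0.33 against the lowest. A site lay within 50 bp of 80.9% of single summits, within 100 bp of 96.2%. Sites within 10 and 50 bp, in place of 25 bp, made up 33.8% and 84.1%. The difference of 10.1 points in sites within 25 bp was smaller, with an interval that included 0, at 10 bp (1.69), at 50 bp (2.02), against the lowest summit of each label (9.53) and without summits that have another within 1 kb (7.91). The last 2 of these, the highest summit of each label (13.1) and all of the X alternatives were chosen after seeing the data. Within 20 kb, in place of 10 kb, 14.6% of single summits had a summit of another label. The causes were not tested. Merging summits of a label within 1 kb gave 325 single-summit labels and splitting joint labels 318. The alternative that used promoters was not run, since promoter sequences were not used here. No paired analysis was possible because the list comes from 1 pooled library. Without read counts, what depth limits is unknown.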
